A study of Mus musculus with 18 samples.

Results

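The 8 genes described here encode the D-type cyclins (Ccnd1, Ccnd2 and Ccnd3), the kinases that these cyclins activate (Cdk4 and Cdk6) and the retinoblastoma family (Rb1, and Rbl1 and Rbl2, which encode p107 and p130). They were taken by symbol from the deposited expression table, where each symbol has its own row, and were read across every group of the study. All 8 of 8 were found among 21959 genes, and all 8 were among the 13375 genes with enough counts to be tested.

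The study sequenced 18 RNA libraries of the MOVAS line, an immortalised line of mouse aortic smooth muscle cells, in 6 groups of 3. Blank is the control group, H2O2 was given hydrogen peroxide, an oxidant, and Dox was given doxorubicin, an anthracycline that damages DNA. B_I, H_I and D_I carry only isoliensinine, an alkaloid of lotus seed, as their labelled treatment, and are read here as Blank, H2O2 and Dox with isoliensinine, because their titles run in parallel. Both stressors were used to make the cells senescent, and the labels used here give neither doses nor times. The design text speaks of biological replicates. P-values measure only the spread between these libraries. All 6 groups share 1 cell line. As background, MOVAS cells were made with the SV40 large T antigen, which binds the retinoblastoma proteins and p53, so this line is a limited model of the pathway downstream of the D cyclins.

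A D-type cyclin binds CDK4 or CDK6 when growth factors signal, and the complex phosphorylates the retinoblastoma proteins. These pocket proteins hold E2F transcription factors and their partners on the promoters of replication genes, and they let go when phosphorylated. Loss of this phosphorylation keeps senescent cells out of the cycle, and senescent cells in culture are known to hold raised cyclin D1. Transcript levels show neither protein nor kinase activity.

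Libraries are named by group and replicate number, the Blank libraries being 1, 2 and 4. Library totals ran from 12859609 to 23284077 counts, and the 3 Dox libraries, with 20140802 or more, were deeper than those of the other groups. Levels of a single gene are given in CPM (counts divided by library size) scaled by the trimmed mean of M-values, and levels of different genes are compared as FPKM, which also divides by gene length. Scaling by library totals instead would add 0.18 on the log2 scale to every change from Blank to Dox and 0.12 to every change from Blank to H2O2. Of 10 smooth muscle markers, all were in the table, and their sum was 1474 to 4799 CPM of total counts, whereas Tagln, a defining contractile marker, had 0 to 20 counts in every library. The sum of 8 fibroblast markers was 4391 to 13489 CPM and was the larger of both sums in every group, being 11882 to 13489 CPM in Blank and 4391 to 4954 CPM in Dox. Most of it came from the collagen genes Col1a1 (1928 to 5331 CPM) and Col1a2 (2077 to 7538 CPM). Acta2 (783 to 3817 CPM) likewise gave most of the smooth muscle sum. The sums thus rest on few genes and do not rank the cell types. Sums over markers of other cell types were 33.2 to 80.02 CPM for macrophages, 4.40 to 16.0 for endothelium, 0.366 to 2.95 for lymphocytes, 42.9 to 749 for gut epithelium and 37.6 to 353 for liver. Ncr1, which marks natural killer cells, was at 0 in 16 of 18 libraries.

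Blank_4 (-69.7) and B_I_3 (-61.3) lay apart on the first principal component of log2 CPM, which held 23.5% of the variance, and the members moved there too. Relative to the mean of the other libraries of its group, Ccnd1 stood at 0.601 in Blank_4, 0.564 in B_I_3 and 0.592 in H2O2_3, while Ccnd3 stood at 1.42, 1.40 and 1.40. Acta2, smooth muscle actin, stood at 5.29, 3.37 and 1.32 of the others in the same libraries. Rbl1 stood at 0.391, 0.467 and 0.591. These 3 libraries were thus low for Ccnd1 and Rbl1 and high for Ccnd3, and the part of this in the results below was not tested beyond leaving them out.

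Dox against Blank shows what doxorubicin does to these transcripts. Ccnd1 and Ccnd2 were higher and Cdk4 was lower with doxorubicin, and the other 5 members were not called. A gene is called here when edgeR's quasi-likelihood test gives a Benjamini-Hochberg adjusted p under 0.05 over all genes tested. The 3 of 8 members called compare with 21.7% of all genes tested (10.3% higher and 11.4% lower), and the median log2 change was -0.03 over the members and 0.08 over all genes tested. In 5 of 8 members the Dox and Blank libraries did not overlap, against 36.1% of all genes tested. A bulk sample cannot tell fewer cells with a transcript from less RNA in each cell.

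Ccnd1 (ENSMUSG00000070348, chromosome 7, 144483668 to 144493662, minus strand in the deposited table, with no build named in the sources used here) encodes cyclin D1, the D cyclin best known as a sensor of mitogens. It stood at 31.0, 31.7 and 18.9 CPM in Blank_1, Blank_2 and Blank_4 and at 113, 112 and 111 CPM in the Dox libraries. All Dox libraries lay far above all Blank libraries and close to each other, and the lowest Blank library was Blank_4. The rise was 4.12-fold (log2 2.04, SE 0.227, 95% interval 1.57 to 2.51, Benjamini-Hochberg adjusted p = 2.17e-06, edgeR). Leaving out each Blank or Dox library in turn gave 1.81 to 2.17, and all of these kept the call.

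With H2O2, Ccnd1 stood at 66.8, 84.6 and 44.8 CPM. Every H2O2 library was above every Blank library and below every Dox library, and H2O2_3 was the lowest of its group. The rise over Blank was 2.40-fold (log2 1.26, SE 0.224, 95% interval 0.80 to 1.73, adjusted p = 0.00516). Fitted on the Blank and H2O2 libraries alone, the change was 1.29 and the adjusted p was 0.194, so the gene was not called without the other 4 groups in the fit. Dox and H2O2 are compared with the same Blank libraries, so their values are not independent. Compared directly, Ccnd1 was 1.71-fold higher in Dox than in H2O2 (log2 0.78, adjusted p = 0.0214), and the call was lost without any of H2O2_1, H2O2_3, Dox_1 or Dox_3 (adjusted p = 0.0551 to 0.117), the change being 0.57 without H2O2_3. It was also lost with no filter on low counts (0.74, adjusted p = 0.114).

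In the isoliensinine groups Ccnd1 stood at 42.7, 34.9 and 21.9 CPM in B_I, at 73.5, 77.3 and 68.8 CPM in H_I and at 105, 102 and 85.3 CPM in D_I. By group means the order was Dox (112 ± 0.955 CPM, SD, n = 3), D_I (97.4 ± 10.6), H_I (73.2 ± 4.27), H2O2 (65.4 ± 19.9), B_I (33.2 ± 10.5) and Blank (27.2 ± 7.23). H_I overlapped H2O2 and B_I overlapped Blank, while the other neighbours in that order did not overlap. Each group with isoliensinine thus stood next to its group without it.

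**Figure D1:**
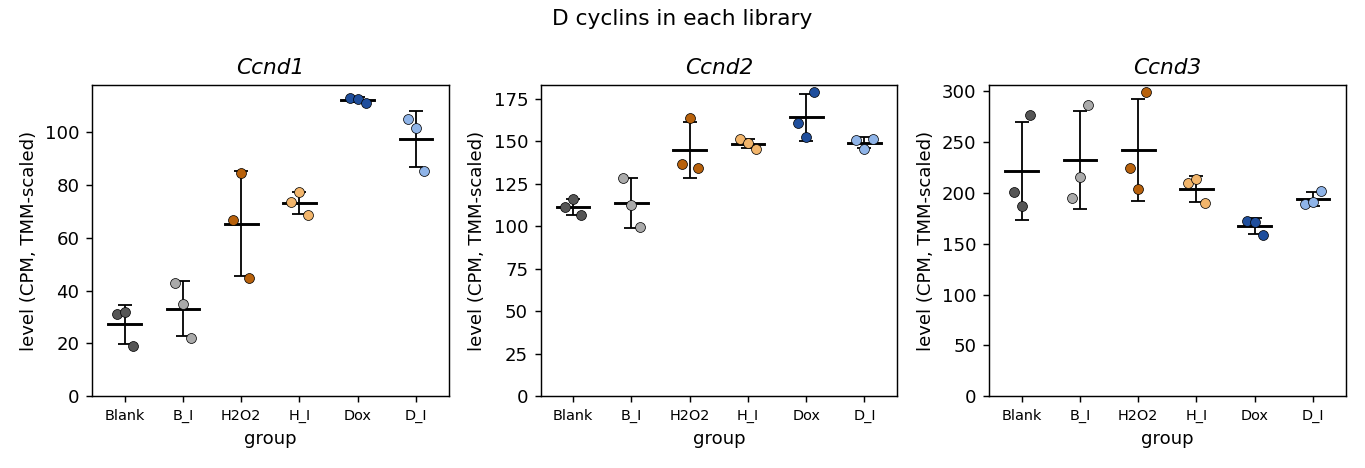
Level of each D cyclin in CPM (vertical axis) in the 6 groups (horizontal axis). Points are libraries, lines are means and bars are SDs (n = 3). Ccnd1 is at 18.9 to 31.7 CPM in Blank and at 111 to 113 CPM in Dox, and the Ccnd3 libraries of Dox lie below those of every other group.

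Ccnd2 (ENSMUSG00000000184, chromosome 6, 127102125 to 127129156, minus strand) encodes cyclin D2. It stood at 112, 116 and 106 CPM in Blank and at 161, 152 and 179 CPM in Dox. The groups did not overlap, and the rise was 1.47-fold (log2 0.56, SE 0.105, 95% interval 0.34 to 0.78, adjusted p = 0.000546). In H2O2 the gene stood at 136, 164 and 134 CPM, all above Blank, but it was not called (log2 0.38, 95% interval 0.16 to 0.60, adjusted p = 0.0713). DESeq2 called it (0.40, adjusted p = 0.0112), as did edgeR without Blank_4 and B_I_3 (0.36, adjusted p = 0.0414), limma with either pseudocount (adjusted p = 0.0427 and 0.0431) and edgeR with a filter of 5 CPM (adjusted p = 0.0398). Of 18 settings besides the main fit, 12 did not call it. Among these was every edgeR fit without 1 library (adjusted p = 0.0631 to 0.252). B_I stood at 128, 113 and 99.3 CPM, H_I at 151, 149 and 146 and D_I at 151, 145 and 151. Dox lay above D_I without overlap but overlapped H2O2, since H2O2_2 (164 CPM) was above Dox_1 and Dox_2. By order of means D_I, H_I and H2O2 overlapped their neighbours, and Blank and B_I overlapped each other below the rest.

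Ccnd3 (ENSMUSG00000034165, chromosome 17, 47815976 to 47910616, plus strand) encodes cyclin D3. It stood at 201, 187 and 277 CPM in Blank_1, Blank_2 and Blank_4 and at 172.0, 171.9 and 159 CPM in Dox. Every Dox library was below every Blank library, but the change was not called (log2 -0.40, 95% interval -0.72 to -0.08, adjusted p = 0.0655). It was called by DESeq2 (-0.45, adjusted p = 0.0346) and by edgeR without Blank_2 (-0.51, adjusted p = 0.0296), with DESeq2's size factors (adjusted p = 0.0474) and with no filter (adjusted p = 0.0356). Without Blank_4, B_I_3, H2O2_3 and H_I_1 the change was -0.22 and was called (adjusted p = 0.0437). Without Blank_4 alone it was -0.24 (adjusted p = 0.252), and 13 of 18 settings besides the main fit did not call it. The size of this change thus rested in part on the high Blank_4.

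In the H2O2 libraries Ccnd3 stood at 224, 204 and 299 CPM, with H2O2_3 the highest, and the change from Blank was 0.13 on the log2 scale (adjusted p = 0.78). The B_I libraries stood at 195, 216 and 287 CPM, the H_I libraries at 209.8, 214 and 189.8 and the D_I libraries at 189, 192 and 202. Dox stood below all other groups, and the other groups overlapped their neighbours. Compared directly, Ccnd3 was lower in Dox than in H2O2 (log2 -0.53, adjusted p = 0.0245), and the call was lost without any of H2O2_3 (-0.35, adjusted p = 0.178), Dox_1, Dox_2 or Dox_3 (adjusted p = 0.0537 to 0.116).

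Put on 1 scale per length, the D cyclins changed places. In Blank, Ccnd3 had the highest mean (23.3 FPKM), followed by Ccnd2 (11.1 FPKM) and Ccnd1 (5.46 FPKM). In Dox, Ccnd1 was the highest (25.1 FPKM), followed by Ccnd3 (20.1 FPKM) and Ccnd2 (18.4 FPKM). The top rank of Ccnd1 rests on the division by the gene lengths of the table. By CPM it was still the lowest of the 3 in Dox, with 112, against 164 for Ccnd2 and 168 for Ccnd3. Ccnd1 made up 13.7% ± 4.49 (SD, n = 3) of the summed FPKM of the 3 genes in Blank, 24.4% ± 7.27 in H2O2 and 39.5% ± 0.593 in Dox. The share of Ccnd3 was 58.5% ± 7.73 in Blank, 48.5% ± 9.74 in H2O2 and 31.7% ± 1.61 in Dox, whereas that of Ccnd2 had means of 26.6% to 28.9% in the 6 groups. With isoliensinine the share of Ccnd1 was 15.6% ± 5.37 in B_I, 28.4% ± 0.505 in H_I and 35.2% ± 3.102 in D_I. The D_I libraries (31.6% to 37.3%) lay below the Dox libraries (38.9% to 40.0%). These shares carry no test.

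The summed FPKM of the D cyclins was 39.6 to 40.2 in the 3 Blank libraries, although Blank_4 had less Ccnd1 and more Ccnd3. It was 55.7 to 60.5 in H2O2 and 61.0 to 65.2 in Dox. The H2O2 and Dox libraries were thus all above Blank in their total of D cyclin transcripts. With the FPKM divided by the scaling factors used for CPM, the Blank libraries spread to 40.4 to 46.8, H2O2 stood at 54.2 to 58.6 and Dox at 59.6 to 60.7, so the order remained and the close agreement of the Blank libraries did not.

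**Figure D2:**
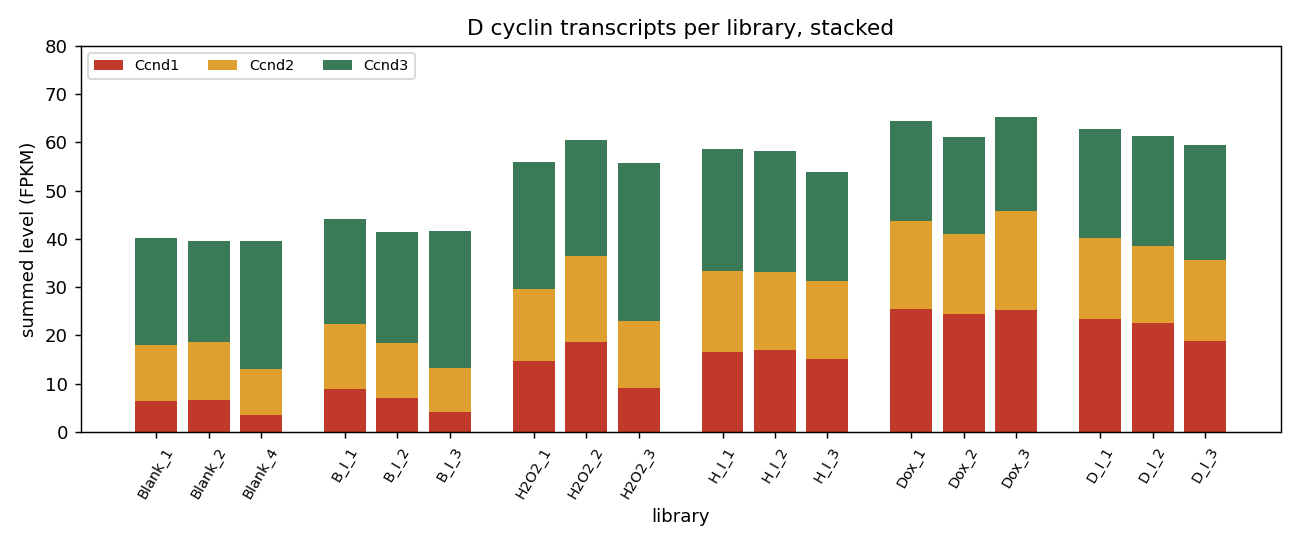
FPKM of Ccnd1, Ccnd2 and Ccnd3 stacked per library (vertical axis), with the 18 libraries grouped on the horizontal axis. The Ccnd1 segment is the smallest in every Blank library and the largest in every Dox library, and the stacks reach 39.6 to 40.2 FPKM in Blank and 61.0 to 65.2 FPKM in Dox.

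Cdk4 (ENSMUSG00000006728, chromosome 10, 126899403 to 126903789, plus strand) encodes the kinase that D cyclins activate in most cell types. Its promoter is shown because Cdk4 was the member that fell and because MYC, a known activator of Cdk4, binds the E-box letters CACGTG. The 250 bases before its start are from RefSeq on GRCm38.p6, chr10:127063285-127063534, plus strand, with each CACGTG in capitals:

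Cdk4: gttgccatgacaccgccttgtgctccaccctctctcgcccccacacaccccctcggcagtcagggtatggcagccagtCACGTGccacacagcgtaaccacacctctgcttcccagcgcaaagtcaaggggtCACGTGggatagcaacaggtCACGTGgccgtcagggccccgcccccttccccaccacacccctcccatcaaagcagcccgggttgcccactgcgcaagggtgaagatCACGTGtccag

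CACGTG reads the same on both strands and occurs 4 times, beginning 172, 118, 98 and 11 bases before the start. Of 32851 promoter windows of this length, 6.02% held CACGTG at least once and 7 windows (0.0213%) held it 4 times or more. A match describes the letters only. Myc transcripts were higher in Dox than in Blank (log2 0.74, adjusted p = 0.00197 by edgeR's quasi-likelihood test), while Cdk4 fell, and a part of MYC in the Cdk4 level was not tested. Promoters were matched for 5 of 8 members, and Cdk6 had 1 CACGTG while Ccnd3, Rbl1 and Rbl2 had none.

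Cdk4 stood at 586, 538 and 633 CPM in Blank_1, Blank_2 and Blank_4 and at 347, 369 and 306 CPM in Dox. The groups were far apart, and the fall was 1.72-fold (log2 -0.78, SE 0.0924, 95% interval -0.97 to -0.59, adjusted p = 3.6e-06 by edgeR's quasi-likelihood test). Leaving out each library in turn gave -0.84 to -0.71, all called. H2O2 stood at 474, 497 and 503 CPM, below every Blank library and above every Dox library, but was not called against Blank (log2 -0.25, 95% interval -0.44 to -0.06, adjusted p = 0.193). Dox was lower than H2O2 (log2 -0.53, adjusted p = 0.000573). Cdk4 overlaps Tspan31 on the opposite strand by 641 bases, as Ccnd1 overlaps LTO1 by 1771 and Ccnd3 overlaps Bysl by 361. The labels do not say that counting used strand, so reads in such overlaps cannot be told apart.

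The isoliensinine groups again stood with their partners. Cdk4 was at 578, 631 and 615 CPM in B_I, at 464, 518 and 488 CPM in H_I and at 329, 337 and 348 CPM in D_I. B_I overlapped Blank, H_I overlapped H2O2 and D_I overlapped Dox, and no group overlapped that of another stressor. Per length, Cdk4 had the highest level of all 8 members, with 167 FPKM in Blank and 110.1 FPKM in Dox, against 0.328 and 0.348 FPKM for Cdk6.

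Cdk6 (ENSMUSG00000040274, chromosome 5, 3391485 to 3581008, plus strand) encodes the other D cyclin kinase. It was detected in every library but at low counts, 31 to 120 per library. It stood at 3.55, 7.39 and 3.61 CPM in Blank, 3.53, 5.46 and 5.28 in H2O2 and 4.25, 4.85 and 4.80 in Dox. Groups overlapped throughout, also in B_I (2.001 to 5.99 CPM), H_I (4.72 to 6.78 CPM) and D_I (3.98 to 5.95 CPM). The change was -0.07 with doxorubicin (95% interval -0.83 to 0.69, adjusted p = 0.924) and -0.03 with H2O2 (95% interval -0.80 to 0.73, adjusted p = 0.986), on the log2 scale. These intervals are wide and allow sizeable changes either way at this depth. Cdk6 made up 0.197% ± 0.105 (SD, n = 3) of the summed FPKM of both kinases in Blank and 0.317% ± 0.0412 in Dox.

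**Figure D3:**
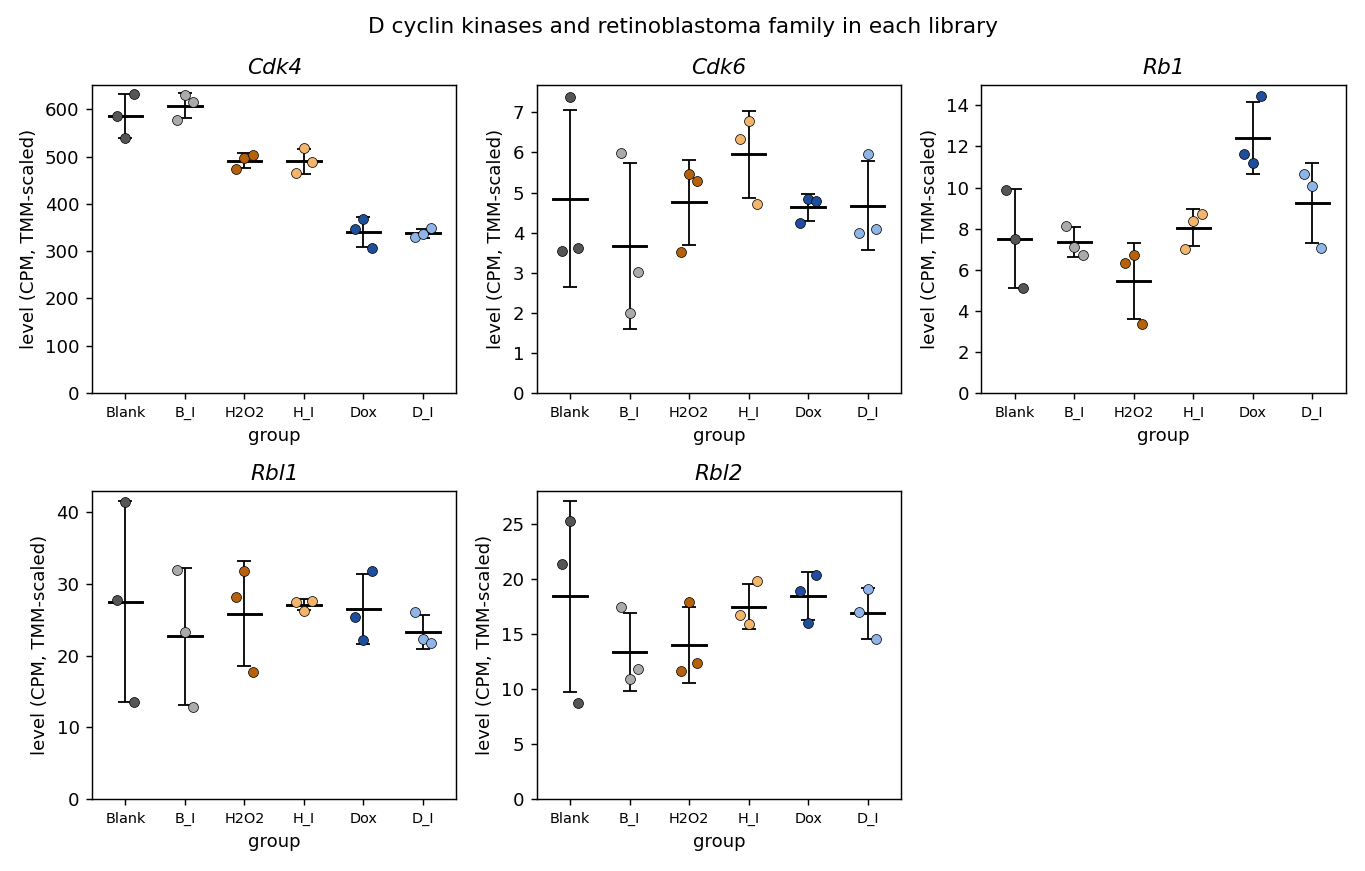
Level of Cdk4, Cdk6, Rb1, Rbl1 and Rbl2 in CPM (vertical axes, each from 0) in the 6 groups (horizontal axes), with points for libraries, lines for means and bars for SDs (n = 3). Cdk4 forms 3 steps, with Blank and B_I at 538 to 633 CPM, H2O2 and H_I at 464 to 518 CPM and Dox and D_I at 306 to 369 CPM.

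Rb1 (ENSMUSG00000022105, chromosome 14, 73421113 to 73563262, minus strand) encodes the retinoblastoma protein itself, which restrains the activating E2F factors. It stood at 9.90, 7.52 and 5.11 CPM in Blank_1, Blank_2 and Blank_4, at 6.35, 6.69 and 3.34 CPM in H2O2 and at 11.7, 11.2 and 14.4 CPM in Dox. Dox lay above every other group, and H2O2 overlapped Blank. Against Blank, Rb1 was not called with doxorubicin (log2 0.72, 95% interval 0.16 to 1.28, adjusted p = 0.0598) or with H2O2 (-0.46, 95% interval -1.03 to 0.12, adjusted p = 0.504). The former was called without Blank_1 (0.98, adjusted p = 0.027) and, with all libraries, by limma on log2(FPKM + 1) (0.56, adjusted p = 0.0153) and log2(FPKM + 0.1) (0.88, adjusted p = 0.0272). The FPKM used by limma are scaled by library totals. Of 18 settings besides the main fit, 15 did not call it. The edgeR fits without 1 library gave 0.48 to 0.98 (adjusted p = 0.027 to 0.274). Dox was 2.27-fold higher than H2O2 (log2 1.18, adjusted p = 0.00634), with 0.93 to 1.36 over the fits without 1 library, all called.

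Rbl1 (ENSMUSG00000027641, chromosome 2, 156987813 to 157046454, minus strand) encodes p107, itself known as an E2F target. Its 250 bases before the start are shown since they were the only ones among the matched members with an E2F word; they are from RefSeq on GRCm38.p6, chr2:157204535-157204784, minus strand, with the word in capitals:

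Rbl1: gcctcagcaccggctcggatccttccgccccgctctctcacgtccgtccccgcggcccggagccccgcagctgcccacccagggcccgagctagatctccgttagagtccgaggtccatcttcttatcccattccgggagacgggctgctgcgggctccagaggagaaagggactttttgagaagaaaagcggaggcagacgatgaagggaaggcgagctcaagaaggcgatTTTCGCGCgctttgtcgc

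The words searched on both strands were TTTCCCGC, TTTCGCGC, TTTGCCGC and TTTGGCGC, and 1.86% of the 32851 windows held any of them. In Rbl1 the match begins 18 bases before the start.

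Rbl1 stood at 27.7, 41.4 and 13.5 CPM in Blank, at 28.1, 31.8 and 17.7 CPM in H2O2 and at 25.4, 22.2 and 31.8 CPM in Dox. The spread within Blank was the widest, with Blank_4 the lowest of that group and Blank_2 the highest, and Blank, H2O2 and Dox overlapped. The log2 change was -0.06 with doxorubicin (95% interval -0.72 to 0.60, adjusted p = 0.924) and -0.09 with H2O2 (95% interval -0.76 to 0.57, adjusted p = 0.946). Without Blank_2 the signs turned (0.36 and 0.32), so no direction can be given.

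Rbl2 (ENSMUSG00000031666, chromosome 8, 91796685 to 91850472, plus strand) encodes p130, the pocket protein of resting cells, which joins the MuvB proteins in the DREAM repressor. It stood at 21.4, 25.3 and 8.72 CPM in Blank, at 11.6, 17.98 and 12.4 CPM in H2O2 and at 19.0, 16.1 and 20.4 CPM in Dox. Blank_4 was the lowest of all 18 libraries, and the groups overlapped. The log2 change was -0.00 with doxorubicin (95% interval -0.58 to 0.57, adjusted p = 0.997) and -0.40 with H2O2 (95% interval -0.98 to 0.19, adjusted p = 0.585).

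Among the pocket protein genes Rbl1 was the highest per length and Rb1 the lowest in Blank and in Dox, with 4.39, 2.33 and 1.18 FPKM for Rbl1, Rbl2 and Rb1 in Blank and 4.66, 2.58 and 2.18 FPKM in Dox. The share of Rb1 in their sum was 16.3% ± 4.80 (SD, n = 3) in Blank, 12.6% ± 1.85 in H2O2 and 23.2% ± 0.983 in Dox. It was the most variable of the 3 pocket protein genes over the group means (1.22 log2 units, against 0.35 for Rbl1 and 0.48 for Rbl2). Rb1 overlaps Rcbtb2 and Lpar6, and Rbl2 overlaps Aktip, each on the opposite strand.

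H2O2 against Blank asks the same question of hydrogen peroxide. Of the 8 members 1 was called, Ccnd1, where 1.43% of all genes tested were called (0.636% higher and 0.793% lower). The median log2 change was -0.06 over the members and -0.02 over all genes tested. Ccnd1, Ccnd2 and Cdk4 did not overlap between the groups, against 13.7% of all genes tested. The H2O2 means of these 3 genes thus lay between those of Blank and Dox, and only Ccnd1 passed the test.

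Dox against H2O2 compares the stressors directly. Ccnd1 and Rb1 were higher and Ccnd3 and Cdk4 lower in Dox, 4 of 8 members, where 13.1% of all genes tested were called (6.73% higher and 6.33% lower). The same 4 genes did not overlap between the groups, against 32.6% of all genes tested. Ccnd2 (0.18, adjusted p = 0.294) and Rbl2 (0.40, adjusted p = 0.403) were not called.

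**Figure D4:**
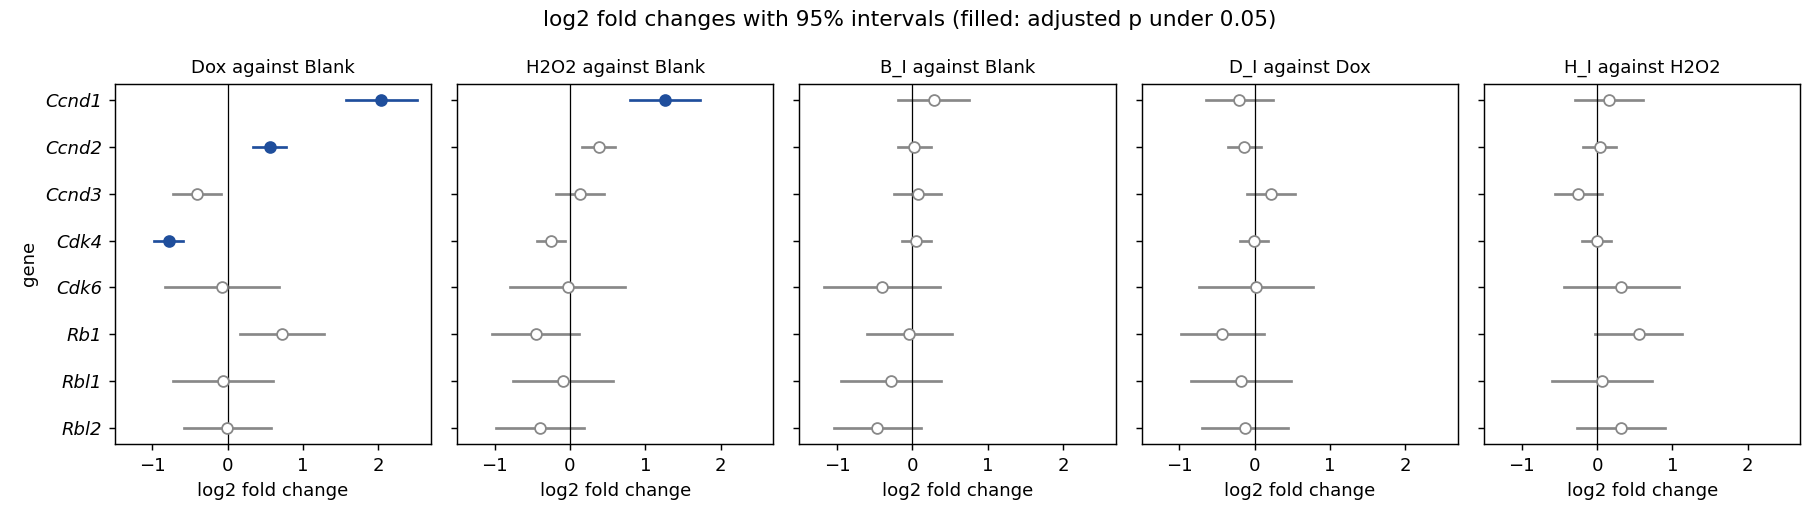
Log2 fold change of each member (horizontal axes) in 5 comparisons, with 95% intervals as lines. Filled points have an adjusted p under 0.05: Ccnd1 (2.04), Ccnd2 (0.56) and Cdk4 (-0.78) in Dox against Blank and Ccnd1 (1.26) in H2O2 against Blank, and none in the 3 comparisons of isoliensinine.

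The effect of isoliensinine was compared within each background, and none of the 8 members was called. In B_I against Blank the log2 changes ran from -0.46 for Rbl2 (95% interval -1.05 to 0.12) to 0.28 for Ccnd1 (95% interval -0.18 to 0.75), each with an adjusted p of 0.998, and every member overlapped between the groups, where 7.29% of all genes tested did not. Of all genes tested, 0% were called by edgeR's quasi-likelihood test, 640 had an unadjusted p under 0.05, DESeq2 called 1 and limma 0. Of the members, 0 had an unadjusted p under 0.05 in this comparison, in D_I against Dox or in H_I against H2O2.

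In D_I against Dox, 4 of 8 members did not overlap between the groups, against 18.8% of all genes tested. Ccnd1 (-0.20, 95% interval -0.65 to 0.24), Ccnd2 (-0.14, 95% interval -0.35 to 0.08) and Rb1 (-0.43, 95% interval -0.98 to 0.13) were below Dox in all 3 D_I libraries, and Ccnd3 (0.21, 95% interval -0.10 to 0.53) was above it, each with an adjusted p of 0.999. The Cdk4 change was -0.01 (95% interval -0.20 to 0.18), a narrow interval around no change. Of all genes tested 0% were called, 556 had an unadjusted p under 0.05, DESeq2 called 20 and limma 1.

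In H_I against H2O2, 1 member did not overlap between the groups, against 12.1% of all genes tested. That was Rb1, at 7.01, 8.39 and 8.70 CPM in H_I and 6.35, 6.69 and 3.34 CPM in H2O2 (log2 0.55, 95% interval -0.02 to 1.13, adjusted p = 0.748). The log2 change of Ccnd1 was 0.16 (adjusted p = 0.94) and that of Ccnd3 was -0.25 (adjusted p = 0.814). Ccnd1 stood at -0.05 without H2O2_3. Of all genes tested 0% were called, 915 had an unadjusted p under 0.05, DESeq2 called 70 and limma 0. Gut epithelium markers summed to 214 to 749 CPM in H_I and 42.9 to 156 CPM in H2O2, and liver markers to 121 to 353 and 37.6 to 104 CPM. Their part in the H_I values was not tested.

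The response to each stressor was also measured within the isoliensinine groups. In D_I against B_I, Ccnd1 (1.55, adjusted p = 5.26e-05) and Ccnd2 (0.39, adjusted p = 0.0108) were higher and Cdk4 was lower (-0.85, adjusted p = 1.94e-06), where 18.8% of all genes tested were called (9.41% higher and 9.41% lower). Rb1 was not called (0.33, adjusted p = 0.446). The Ccnd2 call was lost without B_I_2 (0.36, adjusted p = 0.0578) or B_I_3 (0.28, adjusted p = 0.1), and without both Blank_4 and B_I_3 (0.27, adjusted p = 0.0588). In H_I against B_I, Ccnd1 was higher (1.14, adjusted p = 0.0117), where 1.46% of all genes tested were called (0.464% higher and 0.994% lower), and its call was lost without B_I_2, B_I_3 or H_I_1 (adjusted p = 0.0576 to 0.0677) and with no filter (adjusted p = 0.0595). Ccnd2 (0.39, adjusted p = 0.0633) and Cdk4 (-0.31, adjusted p = 0.0898) were not called.

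The difference between the isoliensinine effects was tested directly. For each of the 3 differences, 0% of all genes and 0 of 8 members were called by edgeR's quasi-likelihood test. For Ccnd1, the isoliensinine effect with doxorubicin minus that without a stressor was -0.49 on the log2 scale (95% interval -1.14 to 0.16), and 522 genes but 0 members had an unadjusted p under 0.05. For Rbl2, the effect with H2O2 minus that without a stressor was 0.78 (adjusted p = 0.848), with 813 genes and 0 members at an unadjusted p under 0.05. Between the stressors, 1054 genes and 2 members, Rb1 and Ccnd3, had one. DESeq2 called 3, 2 and 2 genes in the 3 differences and limma 0, 1 and 1.

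The partners of these proteins were read from lists of known regulators and targets. Beside each count for Dox against Blank stand the 21.7% of all genes tested that were called (10.3% higher and 11.4% lower) and their median log2 change of 0.08. Upstream, the listed regulators of D cyclins had 3 genes higher and 1 lower of 10 in Dox against Blank (median log2 change 0.11). Myc, which encodes a growth-promoting transcription factor, rose from 27.8 ± 1.65 to 46.3 ± 0.322 CPM (SD, n = 3; log2 0.74, adjusted p = 0.00197 by edgeR's quasi-likelihood test). Jun, an AP-1 subunit, rose by 0.68 (adjusted p = 0.0023) and Ctnnb1, β-catenin, by 0.52 (adjusted p = 0.00196) on the log2 scale. The gene that was lower was Egr1, an immediate early transcription factor (-0.50, adjusted p = 0.00413), which is named here after its value was seen. The other 6 were not called.

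Of 9 genes of cyclin D turnover 1 was higher and 1 lower with doxorubicin, a share near the 21.7% of all genes tested. Cul4a, a ubiquitin ligase scaffold, was higher (0.59, adjusted p = 0.0236), and Fbxo31, an F-box protein that targets cyclin D1 after DNA damage, was lower (-0.60, adjusted p = 0.000696). Of 5 genes of the CDK-activating kinase and CDK chaperones 1 was lower, Cdc37, the kinase co-chaperone that loads CDK4 onto HSP90 (-0.36, adjusted p = 0.0257), again a share near that of all genes.

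Of 7 CDK inhibitors 1 was higher and 2 lower with doxorubicin (median -0.52), where 10.3% of all genes tested were higher and 11.4% lower (median 0.08). Cdkn1a, which encodes p21, had the largest change of the list (2.20, adjusted p = 4.36e-10), and the INK4 genes Cdkn2a (-0.58, adjusted p = 0.00992) and Cdkn2c (-0.52, adjusted p = 0.000733), whose products block CDK4 and CDK6, were lower. The deposited rows are per gene, so the p16 and ARF transcripts of Cdkn2a are not separated.

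Downstream of the pocket proteins, 0 of 10 E2F and DP genes were called with doxorubicin (median -0.03). Of 9 retinoblastoma corepressors 1 was higher, Hdac1, a histone deacetylase, which rose from 51.6 ± 1.71 to 105 ± 7.32 CPM (SD, n = 3; log2 1.03, adjusted p = 3.36e-06 by edgeR's quasi-likelihood test). Of 8 genes of the MuvB core, B-Myb and related factors 2 were lower, Mybl2 (-0.50, adjusted p = 0.0433), which encodes B-Myb, and Lin37 (-0.48, adjusted p = 0.022), a MuvB subunit. Of 5 genes of cyclin E, cyclin A, CDK2 and a related phosphatase 1 was lower, Ccne1 (-0.67, adjusted p = 0.000303), which encodes cyclin E1. In these short lists, shares of this size are read against the 21.7% called among all genes tested and say nothing particular about the lists.

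Of 23 E2F target genes of replication 2 were higher and 5 lower with doxorubicin (median -0.07), where 10.3% of all genes tested were higher and 11.4% lower (median 0.08). Chaf1b, a chromatin assembly factor subunit, fell by 0.99 (adjusted p = 1.2e-07) and Tk1, thymidine kinase, fell by 0.67 (adjusted p = 0.00315), whereas Rrm2, a ribonucleotide reductase subunit, rose by 0.77 (adjusted p = 2.86e-05). Called targets thus lay in both directions. With H2O2, Cdkn1a was higher (1.16, adjusted p = 2.61e-05) and 0 genes of the other 8 lists were called, beside 1.43% of all genes tested. In the 3 isoliensinine comparisons 0 genes of these 9 lists were called.

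The genes nearest to Ccnd1 over the 6 group means were Cdkn1a, Basp1 and Ccng1 of 5645 genes with a mean of at least 5 FPKM. Likeness is the root mean square difference of centred log2 CPM, and it was 0.183, 0.201 and 0.203. Ccng1, which encodes cyclin G1, stood at 35.7 CPM in Blank, 58.2 in H2O2 and 123 in Dox, and Basp1 at 27.1, 50.9 and 91.8 CPM. All 4 genes had their highest mean in Dox and their lowest in Blank, but the other 3 were chosen for their likeness to Ccnd1. On log2(FPKM + 1) the same 3 genes were nearest, in another order. This is a description of 6 means.

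For Rb1, the member with the next widest range, the nearest were Polr2b (0.0767), Bms1 (0.0963) and Mcm3ap (0.105) of 5646 genes. Polr2b stood at 48.4 CPM in Blank, 35.3 in H2O2 and 71.1 in Dox. On log2(FPKM + 1) 3 other genes were nearest to Rb1 (Nup107, Srbd1 and Thrap3), so these neighbours depend on the scale, which weighs low counts differently.

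**Figure D5:**
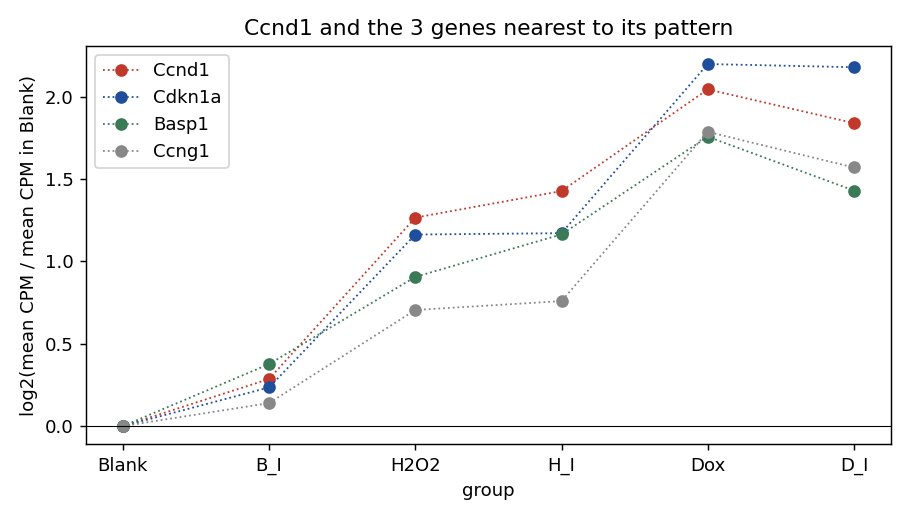
Mean CPM of Ccnd1, Cdkn1a, Basp1 and Ccng1 relative to Blank on a log2 scale (vertical axis) in the 6 groups (horizontal axis). Points are group means (n = 3) joined by dotted lines to guide the eye. All 4 genes are lowest in Blank and highest in Dox, and Cdkn1a, Basp1 and Ccng1 were chosen for their likeness to Ccnd1.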

How the data were processed

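Gene counts and FPKM of 18 libraries came from 1 deposited table. The deposited FPKM equal the count divided by gene length and library total, on the usual scale, for 100% of values within a relative tolerance of 1e-06. The submitters' processing notes name fastp 0.22.0, HISAT2 2.1.0 and HTSeq 0.9.1, with no build named in the sources used here. Total RNA was selected with poly-T beads, per the labels' protocols.

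Counts were fitted in edgeR 4.0.16 (R 4.3.3) with TMM factors, the filterByExpr filter and robust quasi-likelihood tests in 1 model of all 6 groups, with Benjamini-Hochberg adjustment over 13375 genes and a threshold of 0.05. The biological coefficient of variation was 0.219. Replicates differed by more than sampling noise (chi-square per degree of freedom of 5.51 or more). The 51 genes without a symbol kept their identifiers. DESeq2 1.42.0, limma 3.58.1 on log2(FPKM + 1) and log2(FPKM + 0.1), other scalings and filters, and leaving out libraries were alternatives. The fit was tested on simulated data.

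The members and lists were chosen with earlier results of these data known. Besides cell type markers, overlapping genes and Egr1, the genes named are all 8 members and the 3 genes nearest in pattern to each of the 2 members that varied most. Up to 3 called genes per list, with the largest changes in each of the first 5 comparisons, are also named.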

Additional observations from a re-analysis of the deposited data

Results flagged for a closer look

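Rb1 lay on opposite sides of the 2 stressors alone when isoliensinine was added. All 3 D_I libraries (10.6, 10.1 and 7.04 CPM) were below all 3 Dox libraries (11.7, 11.2 and 14.4 CPM), and all 3 H_I libraries (7.01, 8.39 and 8.70 CPM) were above all 3 H2O2 libraries (6.35, 6.69 and 3.34 CPM). Of all genes tested, 18.8% did not overlap between D_I and Dox, and 12.1% did not between H_I and H2O2. The difference of the isoliensinine effects, doxorubicin minus H2O2, was -0.98 on the log2 scale (unadjusted p = 0.0188, adjusted p = 0.566 by edgeR's quasi-likelihood test over all genes), so it did not pass the correction. The same difference for Ccnd3 was 0.46 (unadjusted p = 0.0456, adjusted p = 0.628). Of 13375 genes tested, 1054 had an unadjusted p under 0.05 for this difference, and Rb1 was flagged after its value was seen. Rb1 had 43 to 319 counts per library, and without any 1 library of these groups the difference for Rb1 ranged from -1.16 to -0.73.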

How the results depend on the processing

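In Dox against Blank 3 or 4 members were called in every setting, and in the isoliensinine comparisons and their differences 0 were called in every setting. In H2O2 against Blank, where 1 member was called, DESeq2, limma with either pseudocount, a filter of 5 CPM in 3 libraries, and leaving out Blank_4 and B_I_3 or these with H2O2_3 and H_I_1 (both chosen after seeing the data) each gave 2, and the fit on the groups compared alone gave 0. In H_I against B_I, also 1, DESeq2 gave 3, limma 2 with either pseudocount, the 5 CPM filter 2, no filter 0 and an adjusted p under 0.01 gave 0, with 0 to 2 over the fits without 1 library. In Dox against H2O2, with 4, an adjusted p under 0.01 gave 2, and the fits without 1 library gave 2 to 4, with 2 without H2O2_3, Dox_1 or Dox_3. Calls among all genes also rose with DESeq2 and limma. In H2O2 against Blank, edgeR called 191 genes and DESeq2 426, and limma called 504 and 515 with the larger and smaller pseudocount. In H_I against B_I these counts were 195, 514, 364 and 333. The extra member calls of these tools thus came with more calls among all genes. The causes of the differences between settings were not tested.

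Same-numbered libraries showed little sign of pairing: their deviations correlated above 0.1 in at most 1 pair of a comparison, the highest being 0.279 in B_I against Blank. Blank_4 has no same-numbered library, so it was not part of this check and was alone in its block. A shift shared by Blank_4, B_I_3 and H2O2_3 could therefore not be seen this way. With the replicate number as a block, H_I against B_I had 3 called members (Ccnd2, adjusted p = 0.0351, and Cdk4, 0.0404, besides Ccnd1), and the number of members called was the same in the other comparisons.

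Signs turned only for members that were not called. With limma, Rbl1 (0.17 and 0.24 with pseudocounts of 1 and 0.1) and Rbl2 (0.17 and 0.29) turned in Dox against Blank, as did Rbl1 (0.0759 and 0.12) in H2O2 against Blank. There Cdk6 stood at 0.00992 with upper-quartile scaling and 0.0034 with the 5 CPM filter. Without 1 library, Cdk6 ranged from -0.27 to 0.38, Rbl1 from -0.41 to 0.36 and Rbl2 from -0.37 to 0.29 in Dox against Blank, and Cdk6 from -0.22 to 0.41, Rbl1 from -0.40 to 0.32 and Ccnd3 from -0.0506 to 0.32 in H2O2 against Blank. Cdk4 ranged from -0.085 to 0.0474 in D_I against Dox, and Ccnd1 from -0.0499 to 0.39 in H_I against H2O2, with -0.0741 when 4 libraries were left out. Of raw counts, Ccnd1 took 7.73% in Blank, 8.88% in B_I, 14.6% in H2O2, 17.2% in H_I, 25.3% in Dox and 22.1% in D_I of the D cyclin total, because its length in the table is the shortest of the 3. Cdk6 did not pass the FPKM filter of limma. Depth limits Cdk6 and Rb1 most, with 31 to 120 and 43 to 319 counts per library.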
